A study of Mus musculus with 4 samples.

Results

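Antiviral interferon-stimulated genes are the effector genes that cells switch on when interferon reaches them. The 36 genes described here were taken by name: Isg15 and the enzymes of its conjugation, the Ifit, Mx and viperin genes, cytosolic sensors of viral nucleic acid, PARP and TRIM family members and other known interferon targets. They are 36 of 24067 genes (symbols, or accessions without a symbol) in the deposited tables, and all 36 were found in every library. Interferon-beta and its relatives bind the type I interferon receptor, whose signalling leads to binding of the interferon-stimulated response element in target promoters. LPS, the endotoxin of Gram-negative bacteria, reaches the same genes in macrophages because Toll-like receptor 4 signalling leads to production of interferon-beta. Interferon-gamma acts mainly at another element, the gamma-activated sequence, and overlaps with type I interferon in the genes it controls.

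RNA was sequenced from 4 cultures of C57BL/6 mouse bone marrow cells, each giving 1 library. Cells were grown for 6 days with GM-CSF at 10 ng/ml, 10% serum and 100 µM 2-mercaptoethanol, and those that adhered were kept as macrophages, so that other adherent cells of the marrow can be among them. The genotypes were Batf2+/+ (WT) and Batf2-/- (KO), Batf2 encoding a basic leucine zipper protein related to the AP-1 family. According to the labels, all 4 cultures had interferon-gamma (10 ng/ml) for 4 h, and LPS (100 ng/ml) followed for 0 h or 3 h. The groups are thus the WT and KO genotypes at each of these times, and the labels give no age or sex of the mice and do not say how the allele was made.

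Levels are FPKM, read density per transcript length and per library. With 1 library a group there is no test and no p-value. Each interval printed is the 95% interval deposited with the FPKM, centred on the FPKM without changing its relative width. It covers counting and read assignment within a library and not the spread between cultures. Differences are taken between log2(FPKM + 1) values, a scale that compresses the changes of low genes, and folds are ratios of FPKM. The size rule asks for a difference of 1 or more (2-fold), an FPKM of 1 or more on either side of the comparison, and deposited intervals that are clear of each other. By reads per FPKM unit, WT at 3 h was the shallowest library, and the others were 1.22 (WT at 0 h), 1.39 (KO at 0 h) and 1.51 times (KO at 3 h) as deep. Batf2 stood at 2.62 FPKM (WT at 0 h), 0.259 (KO at 0 h), 234 (WT at 3 h) and 10.1 (KO at 3 h), in the direction of the labels.

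The antiviral genes were higher at 3 h than at 0 h in both genotypes. Their summed level was 431 FPKM in WT and 417 in KO at 0 h, and 4295 in WT and 5224 in KO at 3 h. As a share of all FPKM, this was 0.0923% and 0.0876% at 0 h and 0.916% and 1.12% at 3 h. The median member stood at 6.33 FPKM in WT and 5.60 in KO at 0 h, and at 71.0 and 70.2 at 3 h. At 0 h, 4 members in each genotype were under 1 FPKM, and the highest was Lgals3bp with 103.5 (WT) and 98.2 (KO). At 3 h none was under 5 FPKM, and the lowest was Ddx60 with 7.10 (WT) and 8.58 (KO). The leading genes at 3 h were Ifit2, Rsad2 and Isg15 in WT, with 30.7% of the members' sum, and Rsad2, Ifit2 and Isg15 in KO, with 36.6%.

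All 36 members passed the size rule as higher at 3 h in WT and all 36 in KO. Over all genes, 7.55% of 10834 tested passed as higher in WT and 7.84% of 10955 in KO. The members were chosen with earlier results of these data known, so their count is a description and not independent of that choice. The median difference over the members was 2.85 in WT and 3.09 in KO, against -0.54 and -0.64 over all genes tested. The smallest was that of Lgals3bp (1.01 in WT and 1.05 in KO) and the highest that of Rsad2 (7.50 and 8.42). The comparison holds a shift of the whole table: with the libraries rescaled by their median ratio, the all-gene medians moved to -0.07 and -0.08. The split of calls over all genes moved with it, from 818 higher and 2513 lower to 1272 and 1058 in WT, and from 859 and 3063 to 1400 and 1106 in KO. All 36 members still passed in both genotypes. With a pseudocount of 5, Trim25 and Lgals3bp no longer passed in WT.

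The labels place interferon-gamma before LPS, but several of its targets had low levels at 0 h. Cxcl9, a chemokine strongly driven by interferon-gamma, stood at 0.624 FPKM in WT and 0.124 in KO at 0 h, and at 1249 and 1058 at 3 h. Irf1, another early target, was at 12.4 and 12.6 FPKM at 0 h and at 419 and 370.3 at 3 h. Gbp5 and Iigp1, a guanylate-binding protein and an immunity-related GTPase, were at 3.52 and 0.117 FPKM in WT at 0 h and at 867 and 263 at 3 h. Other genes on the list of 10 interferon-gamma responsive genes were not low at 0 h: Cd74 stood at 6209 FPKM (WT) and 3810 (KO), H2-Aa at 1135 and 639.8, Gbp2 at 49.8 and 31.6, and Ciita at 18.8 and 9.52. Cd74 and H2-Aa, genes of MHC class II presentation, differed little between 3 h and 0 h in WT (0.19 and 0.24). The parts of LPS and of interferon-gamma in the 3 h levels therefore cannot be told apart, and the term LPS response below means only 3 h minus 0 h.

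**Figure D1:**
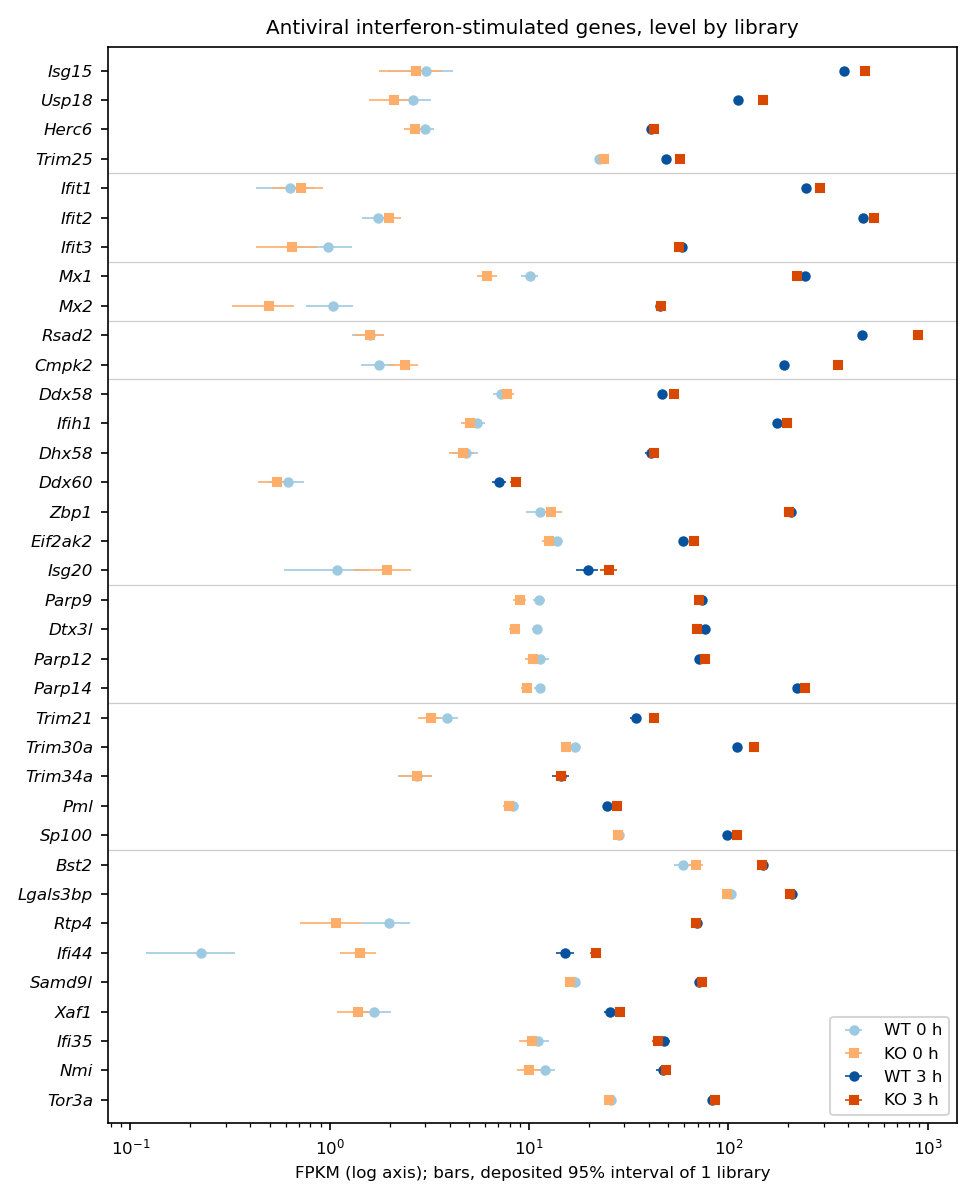
FPKM on a log axis for each of the 36 antiviral genes, grouped by role between grey lines, with circles for WT and squares for KO, pale for 0 h and dark for 3 h. Bars are the 95% intervals of the single libraries. The 3 h symbols lie to the right of the 0 h symbols for every gene, and Rsad2 and Cmpk2 show the widest gap between genotypes at 3 h.

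Promoter sequence was the other feature examined, because these genes are known for their response elements. RefSeq promoter windows on GRCm38.p6, from 250 bases before to 50 after the annotated start, were at hand for 27 of the 36 members. The interferon-stimulated response element was searched as GAAANNGAAA on both strands. It was found for 12 of the 27 (44.4%, exact 95% interval 25.5% to 64.7%), namely Isg15, Ifit1, Ifit3, Rsad2, Ddx58, Ifih1, Ddx60, Eif2ak2, Trim21, Trim30a, Trim34a and Bst2. Of all 32851 windows of this length, 3.44% held it, which is 3.99% counted by gene, and of the 8674 genes with a window that were tested for the LPS response in WT, 4.10%. The gamma-activated sequence, searched as TTCNNNGAA, was found for 5 of 27 members (18.5%), and for 9.55% of all 27025 genes with a window. The AP-1 site, searched as TGANTCA, was found for 5 of 27 members (18.5%), and for 8.97% of all genes. For each of these motifs the exact 95% interval of the members' share was 6.3% to 38.1%, which holds the share of all genes. Both of these motifs read the same on either strand and each site was counted once. A match is a description of the letters and not evidence of binding.

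The 160 bases before the start are shown for 6 members, 5' to 3' on the gene's strand, because Isg15, Ifit1 and Ifit3 were among the strongly responding genes with elements close to the start, Bst2 has an element but a small response, and Rsad2 and Cmpk2 are the pair that differed most between genotypes. Capitals mark the interferon-stimulated response elements and, nearer to the start in Ifit3 and Rsad2, an AP-1 site.
Isg15, chr4:156200819-156200978, minus strand: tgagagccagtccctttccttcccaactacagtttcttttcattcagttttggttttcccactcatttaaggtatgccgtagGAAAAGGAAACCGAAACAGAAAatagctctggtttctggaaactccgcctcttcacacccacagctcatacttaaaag
Ifit1, chr19:34640729-34640888, plus strand: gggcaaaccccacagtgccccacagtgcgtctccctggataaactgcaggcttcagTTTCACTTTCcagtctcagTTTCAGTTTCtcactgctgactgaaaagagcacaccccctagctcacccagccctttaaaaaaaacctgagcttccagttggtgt
Ifit3, chr19:34583369-34583528, plus strand: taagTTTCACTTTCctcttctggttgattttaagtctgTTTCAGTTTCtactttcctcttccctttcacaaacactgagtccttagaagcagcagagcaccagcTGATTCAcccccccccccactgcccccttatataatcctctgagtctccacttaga
Bst2, chr8:71537473-71537632, minus strand: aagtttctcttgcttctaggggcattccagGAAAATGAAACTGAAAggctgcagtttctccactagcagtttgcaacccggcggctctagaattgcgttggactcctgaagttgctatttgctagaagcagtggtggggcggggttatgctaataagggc
Rsad2, chr12:26456453-26456612, minus strand: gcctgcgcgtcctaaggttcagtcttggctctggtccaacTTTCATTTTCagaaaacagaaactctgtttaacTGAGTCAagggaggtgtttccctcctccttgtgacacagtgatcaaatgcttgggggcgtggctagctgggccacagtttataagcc
Cmpk2, chr12:26469055-26469214, plus strand: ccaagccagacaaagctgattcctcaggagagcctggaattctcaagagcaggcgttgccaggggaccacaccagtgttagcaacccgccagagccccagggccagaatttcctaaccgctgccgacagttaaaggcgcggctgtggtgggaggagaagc

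Isg15 held 3 overlapping matches that run together, beginning 78, 72 and 66 bases before the start. Ifit1 held matches that begin 104 and 85 bases before the start, and Ifit3 matches that begin 156 and 122 bases before it. Rsad2 held a single match, beginning 120 bases before the start, and an AP-1 match at 87 bases. Cmpk2 held no match to any of the 3 motifs in its window, and Ifit2 held a gamma-activated sequence match at 241 bases but no interferon element. Among the members, the response in WT had a median of 2.74 (range 1.32 to 7.50) for the 12 with the element and of 2.54 (range 1.01 to 7.43) for the 15 without, so that both ranges cover nearly the same span. Across genes as a description, 25.6% of the 356 tested genes with the element had a WT response of at least 1, against 6.68% of the 8318 without it. The 356 include the 12 members and the 8318 include the 15, all of which had such a response, so this contrast is not independent of the members.

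Genotype differences were small for most members. At 0 h, 33 of the 36 had an FPKM of at least 1 in WT or KO, and Ifit1, Ifit3 and Ddx60 were below it in both. None of the 33 passed the size rule for genotype at 0 h, where 1.70% of 10837 genes passed in either direction. At 3 h all 36 were tested and again none passed, against 1.41% of 9799 genes. The members' median was -0.10 at 0 h, with 10 of 33 (30.3%) higher in KO, and 0.15 at 3 h, with 27 of 36 (75%) higher in KO. Over all genes tested the median was -0.00 at 0 h with 49.9% higher, and -0.07 at 3 h with 34.4% higher. At 3 h the interval of the difference lay above 0 for 21 members, below 0 for Mx1 and Dtx3l, and across 0 for 13. Over all genes tested, the interval lay above 0 for 13.3% and below 0 for 28.0%. After median-ratio rescaling the members' median at 3 h was 0.23, 33 of 36 were higher in KO, and 50.4% of all genes were. Lowering the rule to 1.5-fold brought in Rsad2 and Cmpk2 as higher in KO at 3 h and no member as lower, where 2.21% of all genes passed as higher and 2.82% as lower.

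**Figure D2:**
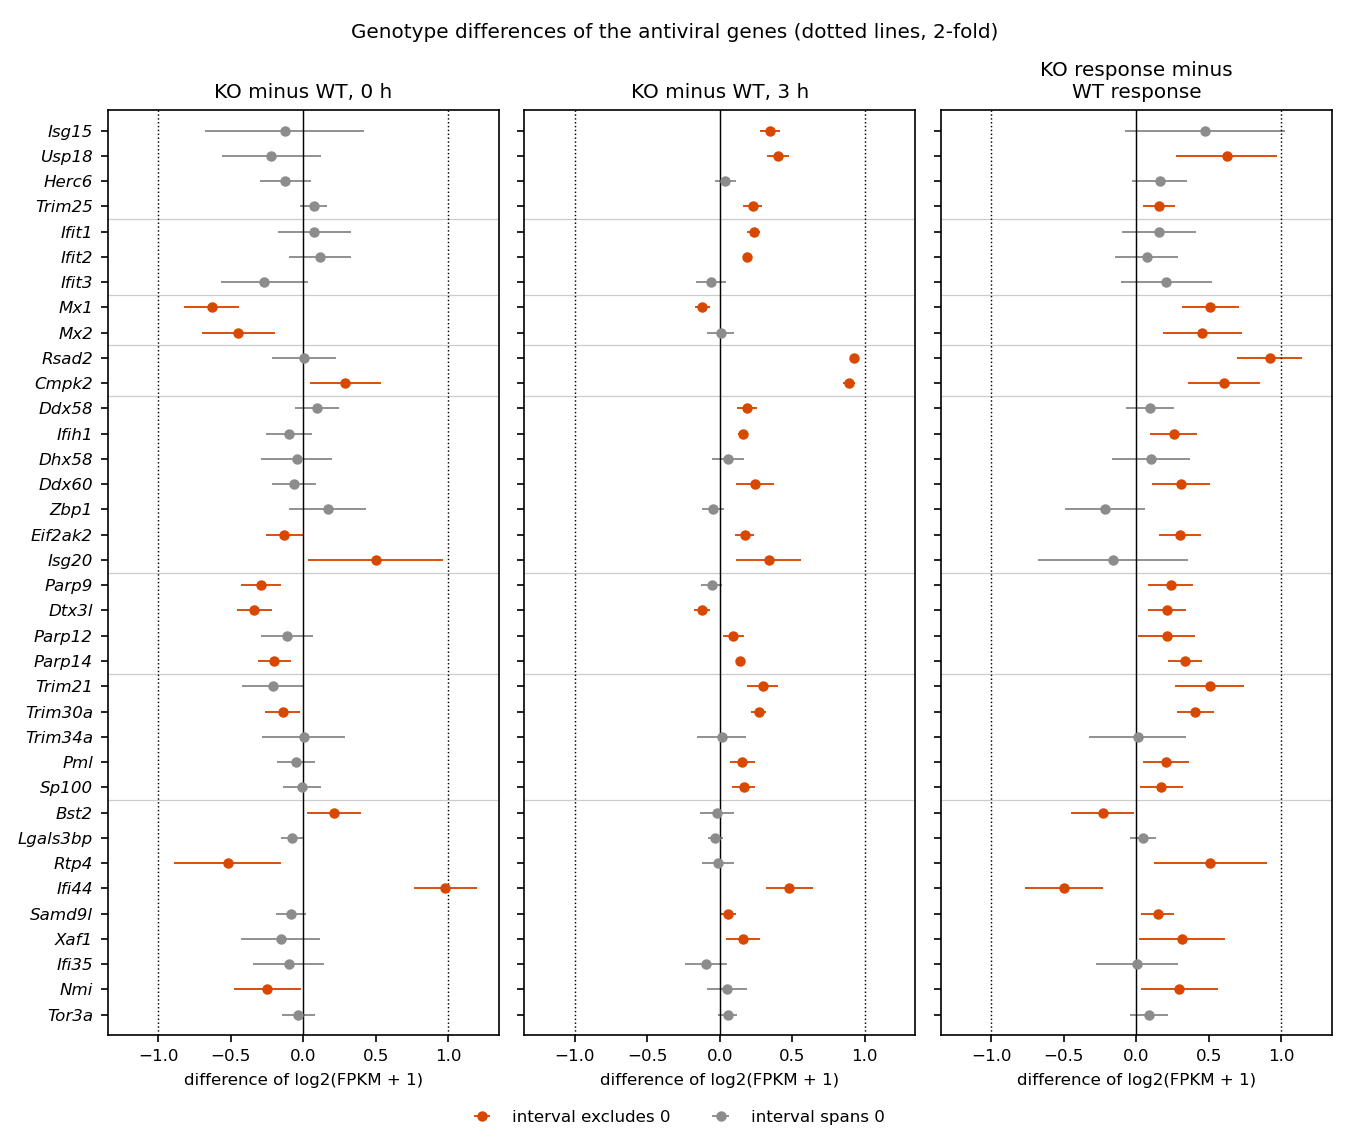
Difference of log2(FPKM + 1) between KO and WT at 0 h (left) and 3 h (middle), and of the 3 h minus 0 h responses (right), for each antiviral gene. Points are the differences, bars their 95% intervals from the single libraries, and dotted lines the 2-fold size; Rsad2 (0.93) and Cmpk2 (0.89) stand just inside the 2-fold line at 3 h, and Ifi44 (0.98) does at 0 h.

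The pair with the widest genotype difference at 3 h was Rsad2 and Cmpk2. Rsad2 encodes viperin, a radical SAM enzyme that makes a chain-terminating nucleotide from CTP, and Cmpk2 encodes a mitochondrial nucleotide kinase. Rsad2 stood at 1.58 FPKM (WT) and 1.59 (KO) at 0 h, and at 468 (interval 461 to 475) in WT and 890.0 (883 to 897) in KO at 3 h. The genotypes were level at 0 h and KO was 1.90-fold higher at 3 h (interval 1.87 to 1.93), a difference of 0.93 on the log2 scale. It was the only member to reach the size rule at 3 h, and then only after rescaling. Cmpk2 stood at 1.77 FPKM (1.44 to 2.10) in WT and 2.38 (1.98 to 2.79) in KO at 0 h, and at 189.5 (185 to 194) and 353 (347 to 358) at 3 h. KO was 1.86-fold higher at 3 h (1.81 to 1.91). The genes are neighbours on chromosome 12, transcribed away from each other with starts 12.8 kb apart, and both have sole entries in the tables and share no 50-base word with another gene's transcripts. The ratio of Rsad2 to Cmpk2 was 0.894 in WT and 0.668 in KO at 0 h and 2.47 and 2.52 at 3 h, so that their proportion at 3 h was nearly the same in both genotypes. Counted from the highest KO minus WT difference at 3 h, Rsad2 was the 103rd and Cmpk2 the 120th of 9799 genes. Without this pair, the median over the remaining 34 members at 3 h was 0.12, with 25 higher in KO.

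**Figure D3:**
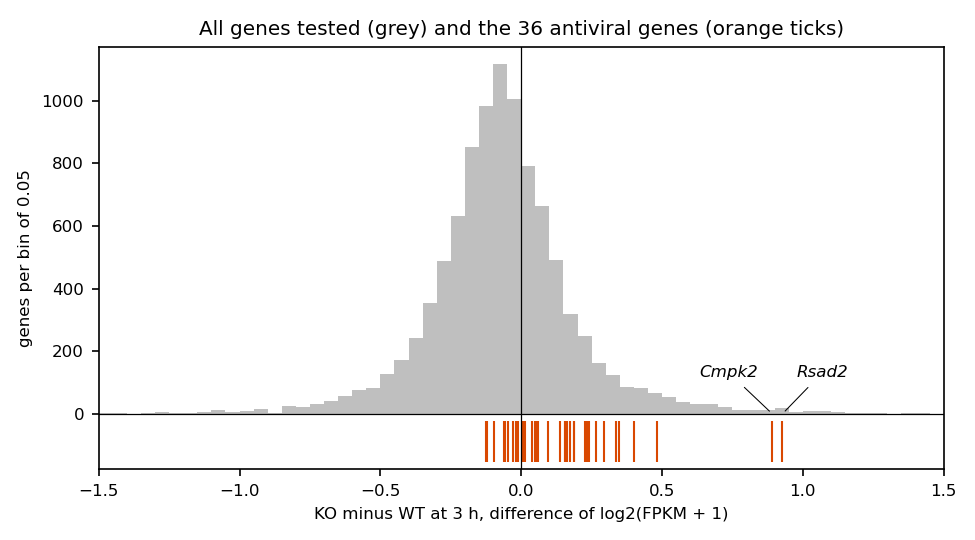
Number of genes per bin of 0.05 in the KO minus WT difference of log2(FPKM + 1) at 3 h, for the tested genes (grey, 91 of 9799 lie outside the axis), with an orange tick for each of the 36 antiviral genes below. Rsad2 and Cmpk2 lie apart from the other ticks, which run from -0.12 to 0.48.

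ISG15 is a ubiquitin-like protein that is attached to other proteins and also secreted, and the enzymes around it form the next group. Isg15 stood at 3.05 FPKM (WT) and 2.71 (KO) at 0 h and at 379.7 (365 to 395) and 483 (469.9 to 496) at 3 h. It was 124-fold higher at 3 h in WT and 178-fold in KO, and the KO library was 1.27-fold above WT at 3 h (1.21 to 1.34). Usp18, the protease that removes ISG15 and also restrains the type I interferon receptor, stood at 2.62 and 2.10 FPKM at 0 h and at 112 (107 to 117) and 148 (143 to 153) at 3 h. Its KO to WT ratio at 3 h was 1.32 (1.25 to 1.40). These genes have overlapping intervals between genotypes at 0 h and separate ones at 3 h. Herc6, the main ISG15 ligase of mouse cells, was at 3.00 and 2.67 FPKM at 0 h and 41.1 and 42.2 at 3 h. Trim25, a ubiquitin ligase that acts on RIG-I, was already at 22.4 and 23.6 FPKM at 0 h and at 48.8 and 57.3 at 3 h. Of the partners of this pathway on a separate list of 5, Uba7 and Ube2l6, which activate and carry ISG15, passed as higher at 3 h in both genotypes. Ube2l6 stood at 10.5 and 10.6 FPKM at 0 h and 64.1 and 61.3 at 3 h, with KO minus WT at -0.06.

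The IFIT proteins bind foreign RNA ends and block its translation. Ifit1 stood at 0.629 FPKM (WT) and 0.718 (KO) at 0 h and at 244 and 287 at 3 h, 387-fold higher in WT (interval 279 to 537) and 399-fold in KO. Ifit2 was at 1.75 and 1.98 FPKM at 0 h and at 472 and 538 at 3 h, and was the highest member in WT. At 3 h the KO library was 1.18-fold (1.14 to 1.21) above WT for Ifit1 and 1.14-fold (1.12 to 1.16) for Ifit2. Ifit3 was at 0.982 and 0.646 FPKM at 0 h and at 58.7 and 56.2 at 3 h, a genotype difference of -0.06 whose interval spans 0 and whose sign turned on rescaling. Ifit3 is also the member with the most shared sequence: 51.2% of the 50-base words of its transcripts stand in Ifit3b as well, so the split of reads between these copies is uncertain. Ifit3b itself stood at 29.1 FPKM in WT and 26.0 in KO at 3 h. The Ifit genes lie together on chromosome 19, 28.4 Mb from Batf2.

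Mx1 and Mx2 encode dynamin-like GTPases that trap viral components, and RefSeq lists both as transcribed pseudogenes in the reference strain, C57BL/6. Mx1 stood at 10.1 FPKM (9.12 to 11.1) in WT and 6.16 (5.45 to 6.87) in KO at 0 h, and at 241 (234 to 248) and 222 (217 to 227) at 3 h. Mx2 was at 1.04 FPKM (0.764 to 1.31) and 0.493 (0.323 to 0.663) at 0 h, and at 45.6 and 45.8 at 3 h. Both were lower in KO at 0 h with intervals that do not overlap, by 0.63 and 0.45 on the log2 scale, whereas at 3 h the difference was -0.12 for Mx1 and 0.01 for Mx2. The difference between LPS responses was 0.51 for Mx1 (0.31 to 0.71) and 0.45 for Mx2 (0.18 to 0.73). The reads of Mx2 were not assigned to the same entry in every library.

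The sensors of nucleic acid formed the next group, led at 3 h by Zbp1, a sensor of Z-form nucleic acid that can trigger cell death. Zbp1 stood at 11.3 FPKM (WT) and 12.8 (KO) at 0 h and at 207 and 200.1 at 3 h. Ifih1, which encodes MDA5, a receptor for long double-stranded RNA, was at 5.46 and 5.03 FPKM at 0 h and at 176 and 196 at 3 h, a 1.12-fold KO to WT ratio (1.09 to 1.14). Ddx58, which encodes RIG-I, was at 7.20 and 7.75 FPKM at 0 h and at 46.6 and 53.2 at 3 h. The response of Ifih1 was thus wider than that of Ddx58, 32.2-fold (29.2 to 35.4) against 6.47-fold (5.87 to 7.12) in WT. Dhx58, encoding the regulator LGP2, was at 4.82 and 4.64 FPKM at 0 h and at 40.8 and 42.5 at 3 h. Ddx60, a helicase linked to RIG-I signalling, was the lowest member at 3 h and stood at 0.615 and 0.545 FPKM at 0 h. With Eif2ak2 and Isg20, described next, this group holds 7 genes. None of the 6 measured at 0 h, which leave out Ddx60, and none of the 7 at 3 h passed for genotype. At 3 h 6 of 7 were higher in KO, Zbp1 being the exception and turning sign on rescaling.

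Effectors acting on RNA and translation were Eif2ak2, the kinase PKR that shuts off translation, and Isg20, an exonuclease. Eif2ak2 stood at 13.8 FPKM (WT) and 12.5 (KO) at 0 h and at 59.4 and 67.0 at 3 h. Isg20 stood at 1.08 FPKM (0.589 to 1.57) and 1.94 (1.32 to 2.57) at 0 h, and at 19.7 (17.1 to 22.2) and 25.1 (22.7 to 27.5) at 3 h. Isg20 had higher values in KO at both times, with overlapping intervals at 0 h and separate ones at 3 h.

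PARP enzymes attach ADP-ribose to proteins, and Dtx3l is the ubiquitin ligase that works in a complex with PARP9. Parp9 was at 11.2 FPKM (WT) and 8.98 (KO) at 0 h and at 73.7 and 70.8 at 3 h. Dtx3l was at 11.0 and 8.47 FPKM at 0 h and at 76.1 and 69.7 at 3 h. The ratio of Parp9 to Dtx3l lay between 0.969 and 1.06 in the 4 libraries. The genes diverge from starts 557 bases apart and their annotated loci overlap by 558 bases. Whether the counting used the strand is not given in the sources used here, so reads in the overlap could have been assigned to either. Parp14, a member with several macrodomains, was the highest of this group at 3 h, with 219 FPKM in WT and 242 in KO, from 11.3 and 9.70 at 0 h. Parp12, which is known to restrict RNA viruses, was at 11.4 and 10.4 FPKM at 0 h and at 71.0 and 75.9 at 3 h. All 4 were lower in KO at 0 h (median -0.25), Parp12 with an interval that spans 0.

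TRIM proteins are ubiquitin ligases, and PML and SP100 build nuclear bodies that restrain DNA viruses. Trim30a stood at 17.0 FPKM (WT) and 15.4 (KO) at 0 h and at 111 and 134 at 3 h, and Trim21, a cytosolic antibody receptor, at 3.86 and 3.20 at 0 h and at 34.2 and 42.2 at 3 h. At 3 h KO was 1.20-fold (1.16 to 1.25) and 1.23-fold (1.14 to 1.33) above WT for these genes. Trim34a was at 2.73 and 2.74 FPKM at 0 h and at 14.4 and 14.5 at 3 h, and 39.8% of its 50-base words are shared with Trim34b. Pml was at 8.28 and 7.97 FPKM at 0 h and at 24.7 and 27.6 at 3 h. Sp100 was at 28.1 and 27.9 FPKM at 0 h and at 98.3 and 110.3 at 3 h. The response of these nuclear body genes was modest, a difference of 1.47 for Pml and 1.77 for Sp100 in WT.

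The remaining 9 members act at the surface, outside the cell or in ways that are less defined. Bst2, the virion tether also called tetherin, stood at 59.3 FPKM (WT) and 68.8 (KO) at 0 h and at 149 and 147 at 3 h. Lgals3bp, a secreted glycoprotein, was the highest member at 0 h and reached 209 and 204 FPKM at 3 h. These genes were high at 0 h and had small responses, 2.52-fold and 2.02-fold in WT. Rtp4, a receptor chaperone, stood at 1.99 FPKM (1.45 to 2.52) in WT and 1.08 (0.705 to 1.45) in KO at 0 h, and at 69.6 and 69.1 at 3 h. Ifi44 was at 0.227 FPKM in WT and 1.42 (1.12 to 1.71) at 0 h, and at 15.2 (13.7 to 16.8) and 21.6 (20.3 to 23.0) at 3 h. Ifi44 had the largest genotype difference of the members tested at 0 h: its FPKM was 6.26-fold higher in KO (3.74 to 10.5), which is 0.98 on the log2(FPKM + 1) scale and just under the rule, while Rtp4 was lower in KO by 0.52 and level at 3 h. With a pseudocount of 0.1, which compresses low levels less, Ifi44 passed at 0 h.

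Samd9l, a restriction factor of poxviruses, stood at 17.0 FPKM (WT) and 15.9 (KO) at 0 h and at 71.0 and 74.0 at 3 h. Xaf1, which binds the apoptosis inhibitor XIAP, was at 1.66 and 1.39 FPKM at 0 h and at 25.5 and 28.6 at 3 h. Their KO to WT ratios at 3 h were 1.04 and 1.12. Ifi35 and Nmi encode partner proteins. Ifi35 was at 11.1 and 10.3 FPKM at 0 h and at 47.4 and 44.2 at 3 h, and Nmi at 12.0 and 9.99 at 0 h and at 46.9 and 48.5 at 3 h. Tor3a, a torsin family ATPase, was at 25.7 and 25.1 FPKM at 0 h and at 82.3 and 85.6 at 3 h. For Ifi35, Nmi and Tor3a the interval of the genotype difference at 3 h spans 0.

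The responses were then compared between genotypes, as the KO response minus the WT response. None of the 36 members passed the size rule, against 2.35% of 11116 genes in either direction. The median over the members was 0.21, with 32 of 36 (88.9%) above 0, against -0.08 and 36.5% over all genes tested. The interval lay above 0 for 21 members, below 0 for Ifi44 and Bst2, and across 0 for 13. Over all genes tested, it lay above 0 for 9.99% and below 0 for 22.6%. The highest values were those of Rsad2 (0.92, interval 0.70 to 1.14), Usp18 (0.62, 0.27 to 0.97) and Cmpk2 (0.60, 0.36 to 0.85), and the lowest was that of Ifi44 (-0.50, -0.77 to -0.23). The 4 members below 0 were Ifi44, Bst2, Zbp1 and Isg20, all of which stood above WT in the KO library at 0 h. So did Trim25, Ifit1, Ifit2, Rsad2, Cmpk2, Ddx58 and Trim34a, whose response differences were above 0. A higher KO level at 0 h lowers the response difference by construction. The response difference holds the same 4 libraries as the genotype differences at 0 h and 3 h, so it is not a separate line of evidence. Rsad2 passed after rescaling, and Ifi44 passed with a pseudocount of 0.1. With a pseudocount of 5, however, the sign turned for Ifi44, Isg20 and Ifi35. With the highest entry per symbol it turned for Zbp1 and Isg20, so the direction for these members depends on the processing.

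**Figure D4:**
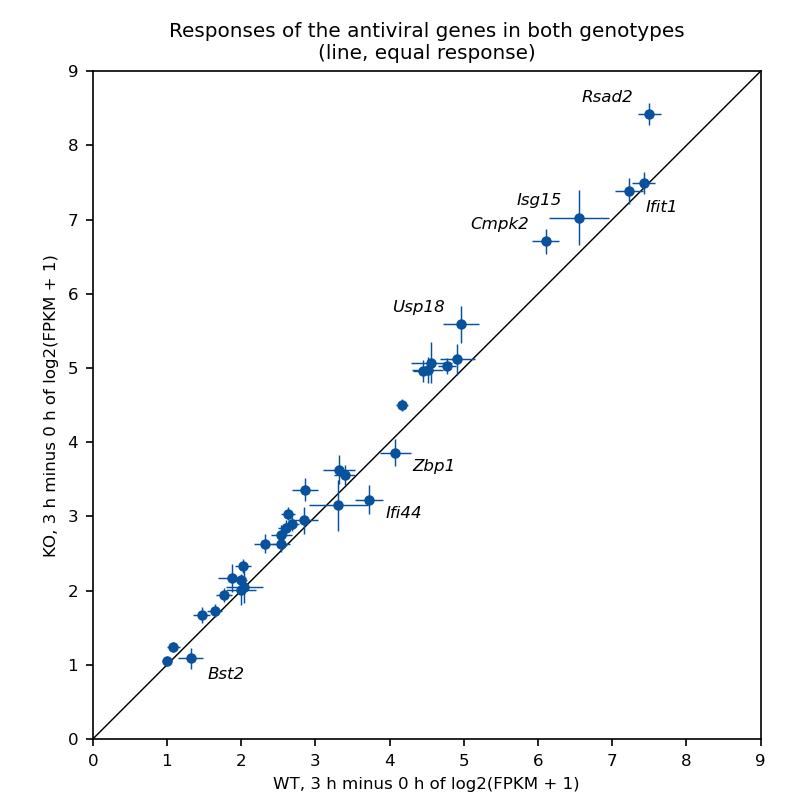
Response (3 h minus 0 h of log2(FPKM + 1)) in KO on the vertical axis against WT on the horizontal axis for the 36 antiviral genes, with 95% intervals from the single libraries and the line of equal response. Most points lie on or slightly above the line, Rsad2 (7.50 in WT, 8.42 in KO) farthest above it and Ifi44 (3.73 in WT, 3.23 in KO) farthest below.

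Several members are listed under more than 1 transcript entry, and the shares of the entries differed between libraries. Of the 36 members, 27 had a sole entry and 9 had several, and those were summed. For Ifih1, entry NM_001164477 held 51.9% (WT) and 41.4% (KO) of the level at 0 h and was listed at 0 in both libraries at 3 h. For Zbp1 the shorter entry NM_001139519 held 60.6% and 69.3% at 0 h and 37.5% and 38.9% at 3 h. Pml entry NM_008884 held 18.8% and 20.2% at 0 h and was listed at 0 at 3 h. For Mx1, entry NM_010846 held 66.8% and 58.4% at 0 h and 66.6% and 64.9% at 3 h, the KO library at 0 h having the lowest share. For Nmi, entry NM_001141949 was listed at 0 in WT and held 28.9% in KO at 0 h, and held 21.8% in WT and was listed at 0 in KO at 3 h. For Mx2, the coding entry held all of the level in KO at 0 h and was listed at 0 in the other libraries. Every entry of the members had the status OK in all 4 libraries, so no value of 0 was marked as a failed estimate. Such a value can still come from how reads were assigned between entries, so these shares are given as listed.

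The genes upstream and beside the members were read from pathway lists, which hold receptors and kinases, STAT and IRF factors, interferon genes, negative regulators, sensing adaptors, interferon-gamma targets, ISG15 partners and other interferon-stimulated genes. No gene on these 8 lists passed the size rule between genotypes at 0 h or at 3 h, where 1.70% and 1.41% of all genes tested passed. For the difference between responses H2-Aa passed (1.17), where 2.35% of all genes did. Ifnb1, which encodes interferon-beta, was at 0.0677 FPKM in WT and listed at 0 in KO at 0 h, and was at 19.5 and 20.6 at 3 h, while the other 6 interferon genes listed stayed under 1 FPKM in all 4 libraries. Among the STAT and IRF factors, Stat2, Irf9, Irf1, Irf7 and Irf8 passed as higher at 3 h in both genotypes. Irf7, the factor that amplifies type I interferon, stood at 1.51 and 1.40 FPKM at 0 h and at 92.0 and 103 at 3 h. Stat2 stood at 16.4 and 12.3 FPKM at 0 h and at 86.0 and 96.2 at 3 h, with a response difference of 0.54.

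Of 7 receptors and kinases, Jak2 passed as higher and Ifngr1 as lower at 3 h in both genotypes. Ifngr1, a chain of the interferon-gamma receptor, stood at 51.3 FPKM (WT) and 34.3 (KO) at 0 h and at 18.8 and 12.9 at 3 h. Of 7 negative regulators, Socs1 and Socs3 passed as higher at 3 h in both genotypes and Ptpn2 in WT. Of 10 sensing adaptors, Ikbke passed as higher and Mavs and Tlr4 as lower at 3 h in both. Over all genes tested, 818 of 10834 passed as higher and 2513 as lower in WT, and 859 and 3063 of 10955 in KO. Tlr4 stood at -1.03 in WT and -1.23 in KO and Ifngr1 at -1.40 and -1.34, where the all-gene medians were -0.54 and -0.64. The calls as lower thus hold the shift of the whole table. Mavs, the adaptor of RIG-I and MDA5, stood at 19.3 and 17.8 FPKM at 0 h and at 3.50 and 2.82 at 3 h, opposite to the sensors it serves.

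Other interferon-stimulated genes, on a list of 25, passed as higher at 3 h for 22 of 24 measured in WT and 22 of 23 in KO. Their genotype median was -0.05 at 0 h and 0.01 at 3 h, with 13 of 23 higher in KO at 3 h. Helz2 had the highest KO minus WT difference of that list at 3 h (0.44, 93.3 FPKM in WT and 127 in KO), and Gbp4 the lowest (-0.49, 148 and 105). The 10 interferon-gamma responsive genes had a median of -0.56 at 0 h over the 8 measured, all lower in KO, and of -0.10 at 3 h, with 4 of 10 higher. Their response difference had a median of 0.38, with 8 of 10 above 0. Their level in KO was thus below WT at 0 h by more than that of the antiviral genes, whose median was -0.10, but the difference between these lists was not tested.

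Some cell type markers differed between the genotypes at each time. Over all genes tested, 143 of 10837 passed the size rule as higher in KO at 0 h and 41 as lower. At 3 h, 70 of 9799 passed as higher and 68 as lower. All 10 neutrophil and precursor markers were higher in KO at 0 h, 6 of them past the size rule. Their summed levels were 3728 FPKM in WT and 9192 in KO at 0 h and 5800 and 5562 at 3 h. Mmp8 passed as higher at 3 h (50.1 FPKM in WT and 103 in KO), but 6 of the 9 measured were lower in KO then (median -0.03). The 8 conventional dendritic cell markers summed to 4932 FPKM in WT and 3120 in KO at 0 h and 3373 and 2896 at 3 h, Ccl17 making up most of each sum and Flt3 being near 0 throughout. Of the 6 measured on that list, 5 were lower in KO at 0 h, and Cd209a passed (6.46 and 2.125 FPKM). At 3 h Clec9a passed as lower in KO (9.68 and 2.16 FPKM). However, 3 of the 6 measured were higher then, Ccr7 the most (18.2 and 35.2 FPKM), and the median was -0.05. The 10 macrophage markers summed to 22910 and 24700 FPKM at 0 h and 17310 and 16200 at 3 h, each at 1 FPKM or above in all libraries, and most of each sum was Lyz2. Cd14, a co-receptor for LPS, passed as higher in KO at 3 h (294 FPKM in WT and 625 in KO), and Adgre1 had a difference of 0.88 (43.9 and 81.9 FPKM). The 7 markers of plasmacytoid dendritic cells, which are strong producers of type I interferon, summed to between 5.60 and 14.2 FPKM in the 4 libraries, with Siglech under 1 FPKM in each. The 6 stromal markers summed to 33.0 FPKM in WT and 73.8 in KO at 0 h and 33.6 and 52.7 at 3 h. The 7 mast cell and basophil markers summed to 6.23, 11.8, 15.4 and 23.4 in the same order. On each of these lists all 5 measured at 0 h were higher in KO. Past the size rule then were Col3a1 and Sparc of the stromal markers and Hdc of the others. Gata2 of the mast cell and basophil list passed as higher in KO at 3 h (0.338 and 2.24 FPKM). B cell, T and NK cell and erythroid markers each summed to under 2 FPKM in every library. The part of these cells in the differences at 0 h and at 3 h was not tested, and in such bulk cultures a change in the number of cells and a change in RNA per cell cannot be told apart.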

How the data were processed

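The 4 deposited tables hold FPKM with a 95% interval and a status for 33841 RefSeq transcript entries. Per the submitters' processing notes, the authors used TopHat2, Bowtie, SAMtools and Cufflinks on mm9. Their versions are not stated in the sources used here. The loci of the tables matched GRCm38 annotation, with 95.7% of entries inside a GRCm38 gene, so positions are GRCm38. The tables list entries in unlike orders and were joined by accession and locus. Symbols came from RefSeq (GRCm38.p6) for 33433 entries, GENCODE M21 for 191 and position for 111, which left 106 unnamed. FPKM was summed over a symbol's entries, and genes with an entry whose status was not OK were left out of comparisons using that library. No read counts were used. For 22 members in the KO library at 3 h the FPKM lay outside its own deposited interval, hence the recentring.

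The members and all lists were chosen with earlier results of these data known. All 36 members could be named, with values in 4 libraries. Of other genes, only Batf2, the pathway lists and the cell type markers were named, and a result on a pathway list is not reported here. The size rule was tested on simulated data with counting error only and with changes wider than the fold of the rule. That test held no spread between cultures and so does not cover it. Alternatives were pseudocounts of 0.1 and 5, median-ratio rescaling, the highest entry per symbol, other filters, intervals not used and a 1.5-fold rule. Scripts used Python 3.11.15, pandas 2.3.3 and numpy 2.4.6.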

Additional observations from a re-analysis of the deposited data

Results flagged for a closer look

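In Eif2ak2, Parp14 and Trim30a the KO library was below WT at 0 h and above it at 3 h, with both intervals clear of 0. The differences were -0.13 and 0.17 for Eif2ak2, -0.20 and 0.14 for Parp14 and -0.14 and 0.27 for Trim30a, all on the log2(FPKM + 1) scale. The KO response exceeded the WT response by 0.30 for Eif2ak2, by 0.34 for Parp14 and by 0.41 for Trim30a. The difference was not tested, since each group is 1 library.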

How the results depend on the processing

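Of 91 recomputed counts, medians and shares, 75 stayed within 1.5 times the count or within the error of the value, and 16 moved. The medians do not use the intervals or the fold of the rule, so they could not move where only those were changed. The 75 therefore include results that were fixed in advance. The count of members past the genotype rule at 0 h went from 0 to 1 with a pseudocount of 0.1 (Ifi44) or with the highest entry per symbol (Mx2), and to 2 with a 1.5-fold rule (Mx1 and Ifi44). At 3 h it went from 0 to 1 on median-ratio rescaling (Rsad2) and to 2 with the 1.5-fold rule (Rsad2 and Cmpk2), and the median went from 0.15 to 0.23 on rescaling. For the difference between responses the count went from 0 to 1 with a pseudocount of 0.1 (Ifi44) or on rescaling (Rsad2), to 2 with the highest entry (Mx2 and Nmi) and to 3 with the 1.5-fold rule (Usp18, Rsad2 and Cmpk2). The median response of 2.85 in WT became 3.22 and 2.22 with pseudocounts of 0.1 and 5 and 3.33 on rescaling, and that of 3.09 in KO became 3.65, 2.42 and 3.66. Requiring C or G after the interferon element left the members' share at 44.4%. The causes of the moves were not tested.

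No paired analysis was possible because each group holds 1 library, which also means that no replicate was left out. Depth limits the members that are low at 0 h: the interval reached 47.1% of the FPKM either way there, against 13.1% at most at 3 h.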
